A study of Mus musculus with 2 samples.

Results

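The lysosome is the acidic compartment in which cells break down proteins, glycans and lipids. Soluble proteases, glycosidases, sulfatases and lipases work in its lumen, activator proteins present lipids to those enzymes, and a heavily glycosylated membrane carries pumps and exporters. In haematopoietic stem cells lysosomes are known to be part of how quiescent cells clear and store material, and the transcription factors TFEB and TFE3 are known activators of lysosome genes. The genes described here are 42 lysosome genes listed by symbol, of 39017 genes in the counts table, and the list was drawn up with earlier results of these data known. They comprise 8 cathepsins, 10 glycosidases, 5 sulfatases, 8 lipid-handling genes, 6 genes of membrane proteins, 3 other lumenal proteins and 2 transcription factors.

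RNA came from LSK cells (Lin- Sca-1+ c-Kit+), the stem and multipotent progenitor fraction of mouse bone marrow. One group was wild-type (WT) C57BL/6J mice, with 12 animals pooled, and the other was miR-146a-/- mice, with 6 animals pooled, all aged 10 to 14 weeks. The labels give a C57BL/6J background for both genotypes and name no treatment. MiR-146a is known to dampen inflammatory signalling downstream of Toll-like receptors. With 1 library per genotype, every difference below is between these libraries, has no replicate check and carries no p-value. The pools also differed in sex-linked RNA. Xist had 10988 counts in WT against 49105 in miR-146a-/-, and the Y-linked Kdm5d had 1263 against 67. For any gene below, a difference by sex of the pools cannot be told apart from one by genotype.

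The targeted gene, Mir146, had 0 counts in both libraries, so the genotype labels could not be checked from these counts. The WT library held 35069136 counts and the miR-146a-/- library 22231389. Normalised CPM, a count divided by library size, used library sizes scaled by TMM, the trimmed mean of M values. The scaling used the 13880 genes that had 20 or more counts in the libraries together, here termed measured. All ratios are log2 of miR-146a-/- over WT, followed by a 95% Clopper-Pearson interval that covers counting error only. Calls of higher or lower required the whole interval to lie beyond 1.5-fold. The non-coding gene Gm42418, which lies in ribosomal repeat sequence, took 2.13% of the WT library and 27.2% of the miR-146a-/- library, and scaling by total counts moved the median of all measured genes from -0.01 to -0.83.

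The markers of LSK cells were abundant in both libraries, with Kit at 558 and 728 normalised CPM in WT and miR-146a-/-. Ly6a, which encodes Sca-1, was at 66.8 and 74.7. Among markers of other cells, Cd3e, Cd3g, Cd8a, Alas2, Lepr and Marco had 0 counts in both libraries, and Ly6g had 1 count in each. Other markers were present: Nkg7 had 1602 and 530 counts, Sdc1 1414 and 607, and Cd79b 757 and 263. Over all measured genes 5.35% were called higher and 1.53% lower. Of 3 measured T and NK markers Cd4 (86 and 68 counts) and Gzmb (9 and 13) were called higher, and of 4 measured B and plasma cell markers Jchain (271 and 38) was called lower. Macrophages are rich in lysosomes, so their markers stand beside the results here. Of 15 monocyte and macrophage markers 12 were measured, 1 (Ly6c2) was called higher and 0 lower, and 8 had a positive ratio, with a median of 0.36. They summed to 88.8 normalised CPM in WT against 92.9 in miR-146a-/-, most of it from Lyz2 (63.0 and 51.5), while Adgre1 had 17 and 4 counts. Csf1r (427 and 252 counts) was at 0.72 (0.49 to 0.95) and Cd68 (468 and 260 counts) at 0.63 (0.41 to 0.85), and neither was called. Of 11 neutrophil markers 8 were measured and 3 were called lower, with a summed level of 16.0 in WT and 8.02 in miR-146a-/-. The part of these markers in the results below was not tested.

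Among the lysosome genes 1 was called and the other 41 were not. Gm2a, which encodes the GM2 activator protein, stood at 38.1% of its WT level in the miR-146a-/- library. All 42 genes were measured. Of these, 0 were called higher, where 5.35% of all measured genes were, and 1 was called lower, where 1.53% of all measured genes were. Their median log2 ratio was 0.04, beside -0.01 for all measured genes and -0.06 for the 9542 protein-coding genes within the same range of WT counts.

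Intervals excluded 0 for 26 of the 42 genes, 17 of them above 0 and 9 below, so counting error alone does not cover all smaller differences. That split is relative to TMM scaling, which the intervals hold fixed. By total counts of protein-coding genes the median of the 42 was -0.13. Intervals that excluded 0 were common elsewhere too: of the 9542 protein-coding genes of the same count range, 2718 had one above 0 and 3626 one below. The SD of the log2 ratio was 0.33 over all 42 and 0.25 over the 41 without Gm2a, beside 0.40 over the protein-coding genes of the same count range. For 38 of the 42 genes (90.5%) the whole interval lay within 1.5-fold in either direction, against 74.2% of protein-coding genes in that count range. Besides Gm2a, the exceptions were Gla, Ctsl and Lgmn, whose intervals reached past 1.5-fold without lying wholly beyond it. Summed over all 42 genes the level was 2632 normalised CPM in WT against 2553 in miR-146a-/-, and the log2 ratio was -0.04 (-0.06 to -0.03). Without Gm2a the sums were 2414 and 2470, a log2 ratio of 0.03 (0.02 to 0.05). Both intervals hold the scaling fixed. With TMM run on genes without a count filter, the median of the 42 went from 0.04 to -0.03. Sums this near 0 are thus relative to the scaling used. As in all bulk samples, fewer cells that express a gene and less RNA per cell cannot be told apart.

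**Figure D1:**
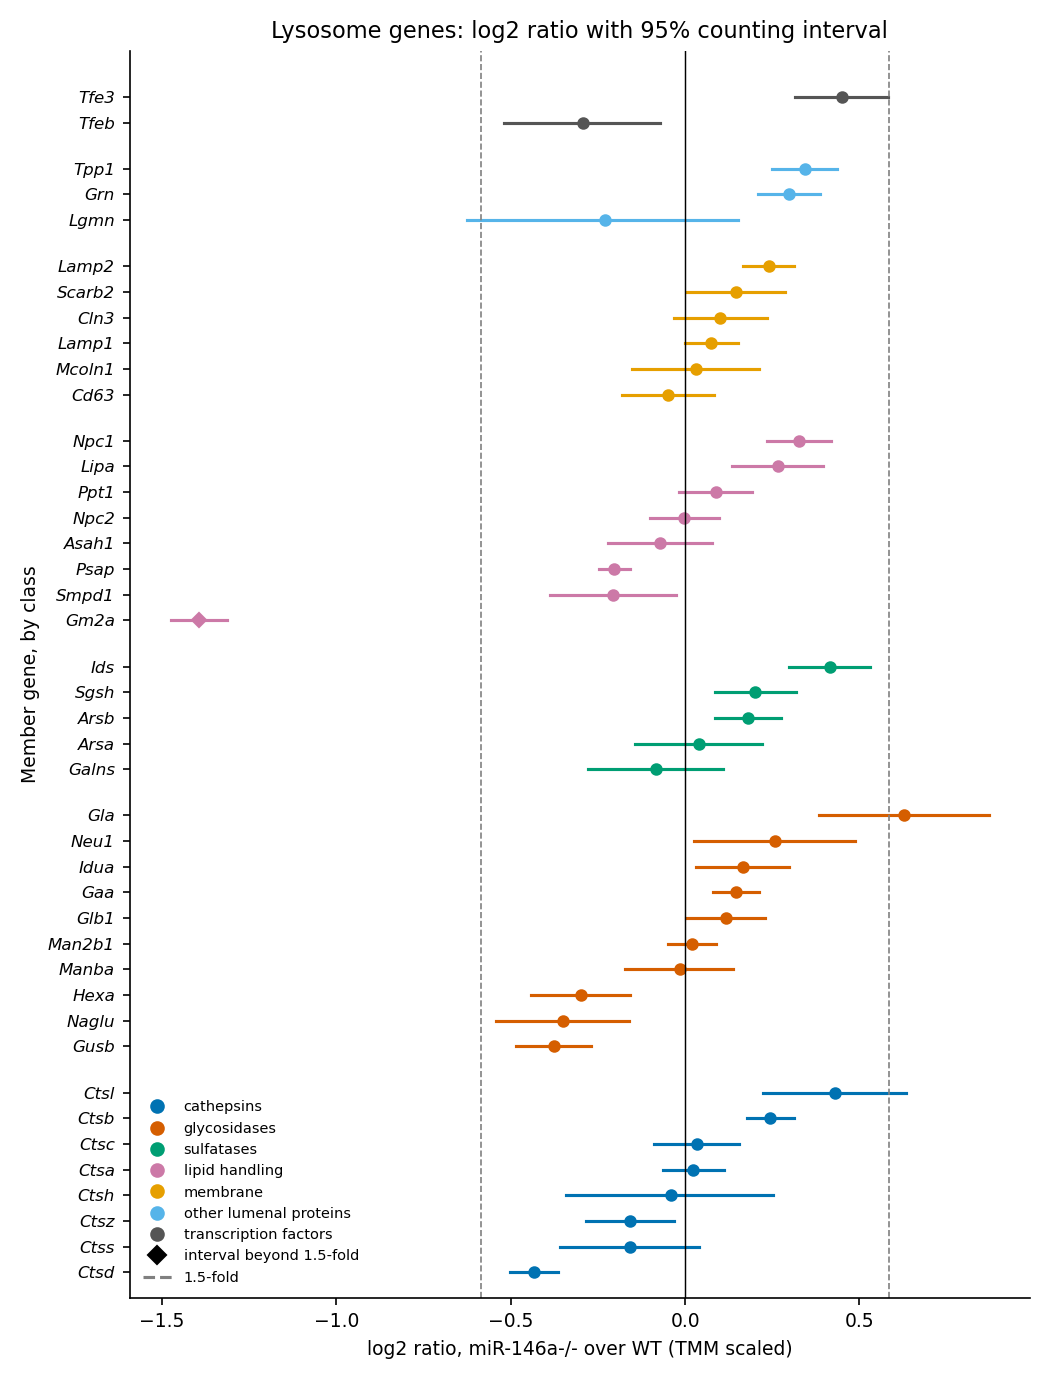
Log2 ratio of each lysosome gene, miR-146a-/- over WT on TMM scaling, on the horizontal axis, with genes grouped by class on the vertical axis. Points are the ratios of 1 library per genotype, bars are 95% counting intervals and dashed lines mark 1.5-fold; Gm2a at -1.39 is the only diamond, a gene whose interval lies wholly beyond 1.5-fold.

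Gm2a lies on chromosome 11 from 55098115 to 55113029 on the plus strand (mm10). Its product lifts GM2 ganglioside out of the membrane so that beta-hexosaminidase A can cleave it. Gm2a had 10158 counts in WT against 1387 in miR-146a-/-, or 218 and 83.0 normalised CPM. The log2 ratio was -1.39 (-1.48 to -1.31), so the WT level was 2.63-fold that of the miR-146a-/- library. The next lowest lysosome gene, Ctsd, was 0.96 above it on the log2 scale. No exon of another gene overlaps Gm2a on either strand in the annotation used here (GENCODE M21). The annotation used for counting is not stated. Gm2a made up 8.28% of the summed level of the 42 genes in WT and 3.25% in miR-146a-/-.

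The enzyme gene among the 42 that acts beside the GM2 activator was not called. Hexa, which encodes the alpha subunit of beta-hexosaminidase, had 1800 counts in WT against 525 in miR-146a-/-, or -0.30 on the log2 scale (-0.44 to -0.16). Its interval lay below 0 and within 1.5-fold, and did not reach that of Gm2a.

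Levels between genes were compared as normalised CPM per kb of exon. Psap, the precursor of the saposins that activate sphingolipid hydrolases, was highest in both libraries, at 135 in WT and 117 in miR-146a-/-. Ctsd, an aspartic protease, ranked next at 72.3 and 53.5. Gm2a had rank 3 in WT at 52.8 and rank 8 in miR-146a-/- at 20.1. Lamp1, a major glycoprotein of the lysosomal membrane, was at 40.7 and 42.9 and had rank 3 in miR-146a-/-. Ctsz had rank 5 in both libraries, at 31.9 and 28.6. Ctsh was lowest, at 1.75 and 1.70. The median over the 42 genes was 9.62 in WT and 10.4 in miR-146a-/-, above the 4.84 and 4.65 of measured protein-coding genes. Apart from Gm2a, the order was nearly the same in both libraries: over the 42 genes, which share both libraries and the same exon lengths, Spearman's rho between the levels was 0.98.

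**Figure D2:**
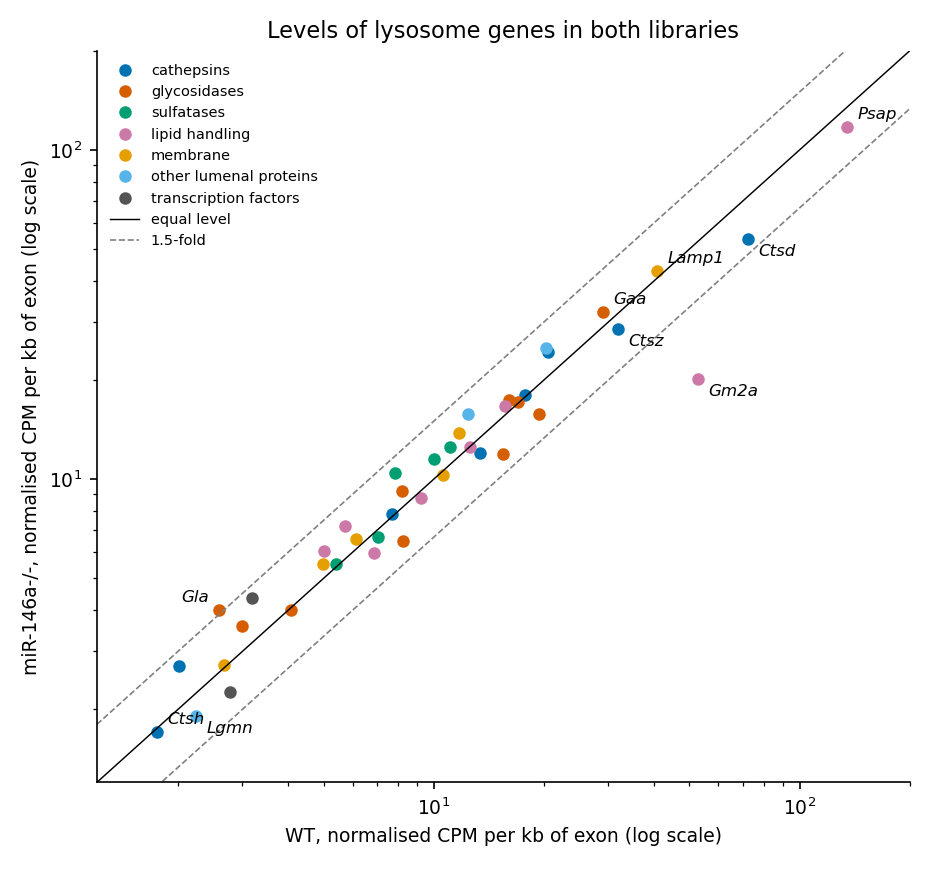
Level of each lysosome gene in WT (horizontal) against miR-146a-/- (vertical), in normalised CPM per kb of exon on log axes, 1 point per gene coloured by class. The solid line marks equal levels and the dashed lines 1.5-fold; Gm2a, at 52.8 and 20.1, lies well below the lower dashed line, and Gla lies near the upper one.

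Of the 8 cathepsins, the main proteases of the lysosome, 0 were called and 4 had a negative ratio, with a median of -0.01. Ctsd had 7920 counts in WT against 2104 in miR-146a-/-, or -0.43 on the log2 scale (-0.50 to -0.36), the lowest of the class. Exons of Gm49369, a gene model on the same strand and not in the counts table, cover 34.4% of its exonic length, so its count is uncertain. The cysteine proteases Ctss (849 and 273 counts) and Ctsz (2141 and 689) both stood at -0.16, and only the interval of Ctsz excluded 0. At the other end, the cysteine protease Ctsl had 608 and 294 counts and a ratio of 0.43 (0.22 to 0.63). An antisense gene covers 26.8% of its exonic length, and whether strand was used in counting is not given in the sources used here. Ctsb, an abundant cysteine protease with 5772 and 2454 counts, was at 0.24 (0.18 to 0.31). Ctsa, the carboxypeptidase that stabilises Glb1 and Neu1 in a complex, was at 0.02. Ctsc, which activates granule serine proteases, was at 0.03, and the aminopeptidase Ctsh at -0.04.

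The 10 glycosidases, which trim sugars from glycoproteins, glycolipids and glycosaminoglycans, had a median of 0.07 with 0 called. Gla, an X-linked gene for the alpha-galactosidase that cleaves globotriaosylceramide, had the highest ratio of all 42 genes. It had 393 counts in WT against 218 in miR-146a-/-, a ratio of 0.63 (0.38 to 0.87), or 1.55-fold, with an interval that crossed the 1.5-fold line. Neu1, a sialidase with 520 and 223 counts, followed at 0.26 (0.02 to 0.49). Gusb, the beta-glucuronidase, was lowest at -0.38 (-0.49 to -0.27), with 3273 and 904 counts. Naglu, which removes N-acetylglucosamine from heparan sulfate, was at -0.35 (-0.54 to -0.16), with 1023 and 288 counts. These 2 enzymes and Hexa had intervals wholly below 0, while Gla, Neu1, Idua (0.17), Gaa (0.15) and Glb1 (0.12) had intervals wholly above it. Gaa degrades glycogen, Glb1 is the beta-galactosidase and Idua removes iduronic acid from glycosaminoglycans. The mannosidases Man2b1 and Manba were at 0.02 and -0.02, with intervals that spanned 0.

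Sulfatases remove sulfate groups from glycosaminoglycans and sulfatides. Of the 5, 0 were called and the median was 0.18. Ids, the X-linked iduronate sulfatase, had 1862 counts in WT against 891 in miR-146a-/-, a ratio of 0.42 (0.30 to 0.53). Sgsh, which acts on heparan sulfate, was at 0.20 (0.08 to 0.32), with 2058 and 849 counts. Arsb, which acts on dermatan sulfate, was at 0.18 (0.09 to 0.28). Opposite-strand gene models overlap 21.6% of the exonic length of Sgsh and 32.3% of that of Arsb. The largest overlapping gene had at most 1 count beside Sgsh and 3 beside Arsb. How reads in shared exons were counted is not stated, so these low counts do not show that Sgsh and Arsb were unaffected. Galns, the sulfatase of keratan sulfate, was lowest at -0.08 (-0.28 to 0.11), with 871 and 295 counts, and Arsa, which acts on sulfatides, was at 0.04. Scaled by total counts the median of the class was -0.64. It was 0.019 by total counts of protein-coding genes and 0.19 by the size factors of DESeq2, another scaling method. Its positive sign was thus lost by total counts, and its size depends on the scaling.

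The 8 lipid-handling genes had a median of -0.04, and Gm2a alone was called. Psap had 17226 counts in WT against 5367 in miR-146a-/-, a ratio of -0.20 (-0.25 to -0.16), the narrowest interval of the 42. Smpd1, the acid sphingomyelinase, was second lowest in the class at -0.21 (-0.39 to -0.03), with 1067 and 332 counts. Npc1, the membrane protein that takes cholesterol out of the lysosome, had the highest ratio at 0.33 (0.23 to 0.42), with 3024 and 1361 counts. Lipa, the acid lipase that frees that cholesterol from its esters, was next at 0.27 (0.13 to 0.40), with 1588 and 685 counts. Npc2, the lumenal protein that hands cholesterol to Npc1, was at 0.00 (-0.10 to 0.10). The ceramidase Asah1 was at -0.07 and the palmitoyl thioesterase Ppt1 at 0.09, both with intervals that spanned 0.

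Genes of membrane proteins varied least, from -0.05 for Cd63 to 0.24 for Lamp2, with an SD of 0.10 over 6 genes and a median of 0.09 that was -0.73 by total counts. Lamp2, which is also needed for chaperone-mediated autophagy, had 5216 counts in WT against 2209 in miR-146a-/-, a ratio of 0.24 (0.17 to 0.31). Scarb2, the receptor that carries glucocerebrosidase to the lysosome, was at 0.15 (0.01 to 0.29), with 1457 and 579 counts. Lamp1 (5069 and 1916 counts) was at 0.08, the membrane protein Cln3 at 0.10 and the calcium channel Mcoln1 (941 and 345 counts) at 0.03. Cd63, a tetraspanin, had 1824 and 633 counts and was at -0.05. The intervals of these last 4 genes spanned 0.

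Of the remaining lumenal proteins, the peptidase Tpp1 had 2993 counts in WT against 1362 in miR-146a-/- (0.34, 0.25 to 0.44). Grn, which encodes progranulin, had 3287 and 1450 counts (0.30, 0.21 to 0.39). Lgmn, the asparaginyl endopeptidase that processes cathepsins, had the fewest counts of the 42, 242 and 74. Its ratio of -0.23 had the widest interval, -0.63 to 0.15. That interval holds both 0 and a level lower by 1.5-fold, so these counts exclude neither.

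The transcription factors stood on opposite sides of 0. Tfeb had 731 counts in WT against 214 in miR-146a-/-, a ratio of -0.29 (-0.52 to -0.07). Tfe3 had 1378 and 675 counts, a ratio of 0.45 (0.31 to 0.58). Neither was called, and their intervals did not overlap each other. Under scaling by total counts both ratios were negative, at -1.11 and -0.37. Their relatives Mitf and Tfec, which are not among the 42, were at 0.29 (0.03 to 0.54) and 0.47 (0.27 to 0.67).

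TFEB and TFE3 bind E-boxes, and the letters CACGTG were sought in the promoters of these genes, from 250 bases before to 50 after each start (RefSeq, GRCm38.p6). This motif reads the same on both strands. Promoters were found for 37 of the 42 genes, and 13 of those (35.1%) held it, against 11.7% of 9735 measured protein-coding genes and 8.09% of the 27025 genes with a promoter. The longer motif known as CLEAR, in which GT precedes and AC follows CACGTG and which therefore contains the E-box, was found in Cln3 alone, or 2.70% of the 37 against 0.791% of the measured genes. Lamp1 had 4 E-boxes, the most of any of the 37 genes with a promoter. The 13 genes with the motif had a median ratio of 0.08 and the 24 without it 0.03. Windows are shown for Cln3 with the CLEAR letters, for Lamp1 and Mcoln1 as membrane proteins with ratios near 0, and for Ctsd and Gla as genes at either end of the range. Capitals mark the motif, each window is written 5′ to 3′ on the strand of the gene, and a match describes these letters, not binding.
Cln3, chr7:126583340-126583369, minus strand: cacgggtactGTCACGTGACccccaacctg
Lamp1, chr8:13159121-13159150, plus strand: gatgccgactggCACGTGaccacatcacgt
Mcoln1, chr8:3500462-3500491, plus strand: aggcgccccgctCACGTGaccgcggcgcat
Ctsd, chr7:142387908-142387937, minus strand: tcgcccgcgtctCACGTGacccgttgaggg
Gla, chrX:134601182-134601211, minus strand: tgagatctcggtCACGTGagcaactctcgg
Lamp1, at a ratio of 0.08, and Ctsd, at -0.43, thus both carried the E-box.

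The mutant is labelled as lacking miR-146a, and sites that match the seed of this microRNA (bases 2 to 8) were also counted. The mature miR-146a-5p (RefSeq, GRCm38.p6) is shown with its seed in capitals, and the match in a 3' untranslated region is AGTTCTC. Of the 42 genes, 6 held it in their longest annotated 3' untranslated region (14.3%), against 13.6% of 12259 measured protein-coding genes. These were Ctsb, Gm2a, Lipa, Asah1, Ppt1 and Lamp2. Their ratios ran from -1.39 for Gm2a to 0.27 for Lipa, with a median of 0.16, and the 36 genes without a match had a median of 0.03. Lipa was the only one with more than 1 match, and its second one is shown together with that of Gm2a, the called gene. Capitals mark the match.
miR-146a-5p, chr11:43374435-43374456, minus strand: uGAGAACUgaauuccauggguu
Gm2a, chr11:55111551-55111579, plus strand: ccaccacgcctAGTTCTCttgatttgtag
Lipa, chr19:34493053-34493081, minus strand: ccaaagtactcAGTTCTCatccctttgcc
Of the 6 genes with a match, Gm2a was called lower and the other 5 were not called.

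Gm2a is on the same chromosome as the microRNA gene Mir146, 11.7 Mb from it; the others on chromosome 11 (Naglu, Grn, Gaa and Sgsh) are 57.7 to 76.0 Mb away and were not called. Genes around Gm2a were examined after its value was seen. Within 500 kb on either side 13 other genes were measured, of which 3 were called higher and 1 lower, where 5.35% and 1.53% of all measured genes were. Their median ratio was 0.07. The lower one was Ccdc69, the nearest gene on the upstream side, from 55049731 to 55078131 on the minus strand. Ccdc69 had 1423 counts in WT against 258 in miR-146a-/-, a ratio of -0.98 (-1.18 to -0.79).

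**Figure D3:**
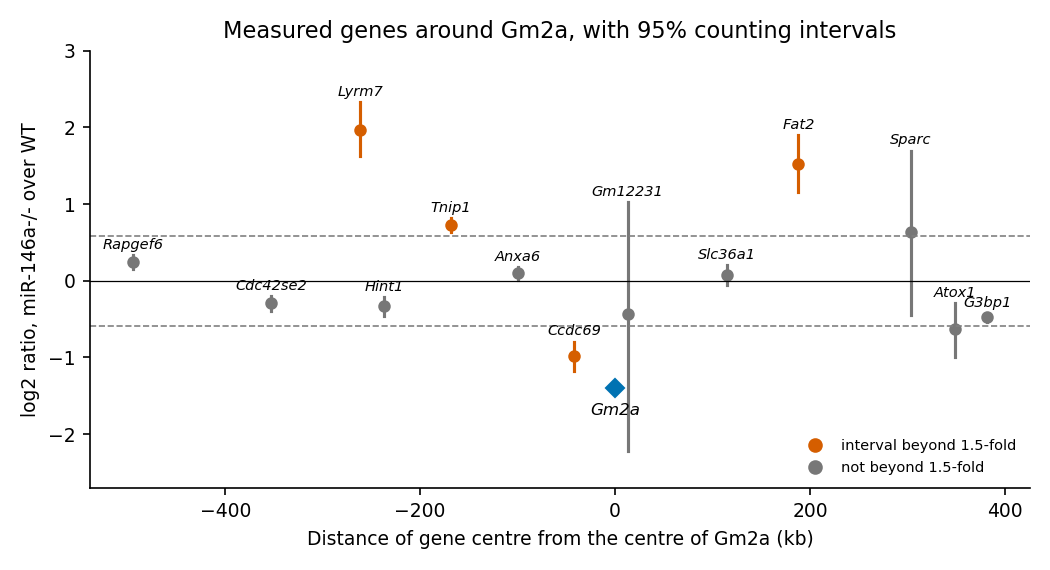
Log2 ratio of Gm2a (diamond) and of the 13 measured genes within 500 kb, miR-146a-/- over WT (vertical), against the distance of each gene's centre from that of Gm2a in kb (horizontal). Bars are 95% counting intervals and dashed lines mark 1.5-fold; the intervals of Ccdc69 and Gm2a, side by side, lie wholly below the lower line, and those of Lyrm7, Tnip1 and Fat2 wholly above the upper one.

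Ratios varied with the length of the gene. Over measured protein-coding genes the median ratio went from -0.17 in the decile of shortest exonic length to 0.17 in the decile of longest, and Spearman's rho was 0.21 (Pearson's r 0.13) over 12319 genes. Over the 42 lysosome genes rho was 0.52 and r was 0.39. With GC content rho was -0.41 and r was -0.30 over the 42 genes, beside -0.0073 and 0.0084 over protein-coding genes. Genes share both libraries and are not independent, so these are descriptions. Adjusted for length and GC content, the median of the 42 was 0.04 and Gm2a stood at -1.31, still called lower.

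All 4 X-linked lysosome genes had a positive ratio, a grouping made after the values were seen. Gla (0.63), Tfe3 (0.45), Ids (0.42) and Lamp2 (0.24) had a median of 0.43, against 0.03 for the 38 autosomal genes. X-linked protein-coding genes as a whole did not stand at that level, with a median of 0.02 over 420 genes, beside -0.03 for autosomal ones. The pools differed in sex-linked RNA: Xist was at 3.64 and the Y-linked genes from -2.75 to -2.33. The part of this difference in the X-linked ratios was not tested.

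**Figure D4:**
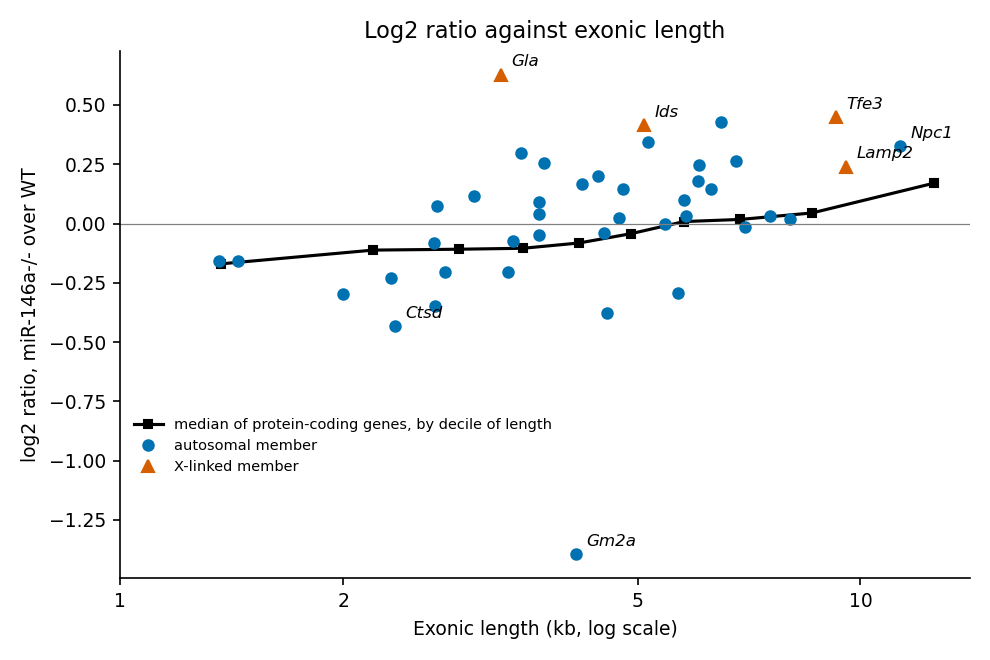
Log2 ratio, miR-146a-/- over WT, against exonic length in kb on a log axis; circles are autosomal and triangles X-linked lysosome genes. The black line joins the medians of protein-coding genes by decile of length and climbs from -0.17 to 0.17; Gm2a at -1.39 lies far below it and the 4 triangles lie above it.

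Beyond the 42, further genes of the lysosome were taken from 7 lists. Of 106 genes found, 103 were measured. Calls numbered 0 higher and 1 lower, where 5.35% and 1.53% of all measured genes were called. The median was -0.07, beside -0.01 for all measured genes. The called gene was Atp6v0b, a membrane subunit of the proton pump (V-ATPase) that acidifies the lysosome, with 1433 counts in WT against 271 in miR-146a-/- (-0.92, -1.12 to -0.74). In the V-ATPase list 14 of 17 genes had a negative ratio and the median was -0.11, with 6 intervals below 0 and 3 above. Adjusted for length and GC content, Atp6v0e (0.014), Atp6v1e1 (0.027) and Atp6ap2 (0.038) were positive instead. Another subunit of the membrane sector, Atp6v0c, was the highest there at 0.60 (0.50 to 0.70), with 2238 and 1219 counts, so subunits of 1 complex differed in sign. Of 9 genes that tag enzymes with mannose phosphate and sort them to the lysosome 0 were called, from Gga2, an adaptor (-0.49), to Gnptab, part of the transferase that makes the tag (0.32).

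Other lysosomal enzymes, with 25 measured, had a median of -0.09 and 0 called. They ran from Acp5 (63 and 15 counts, -0.58) to Scpep1 (0.50). Of 18 measured genes of other lysosomal membrane proteins 0 were called and the median was 0.03, with the peptide transporter Slc15a3 highest (192 and 124 counts, 0.85, 0.51 to 1.18) and the transporter Abcb9 lowest (-0.53). Among 5 measured protease inhibitors, which include the cystatins that block cathepsins, 4 had a negative ratio and 0 were called, from Cst7 (-0.59, -0.89 to -0.30) to Serpinb6a (0.39). These genes are short, with a median exonic length of 1126 bases, and adjusting for both length and GC content took the median of the list from -0.26 to -0.16.

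**Figure D5:**
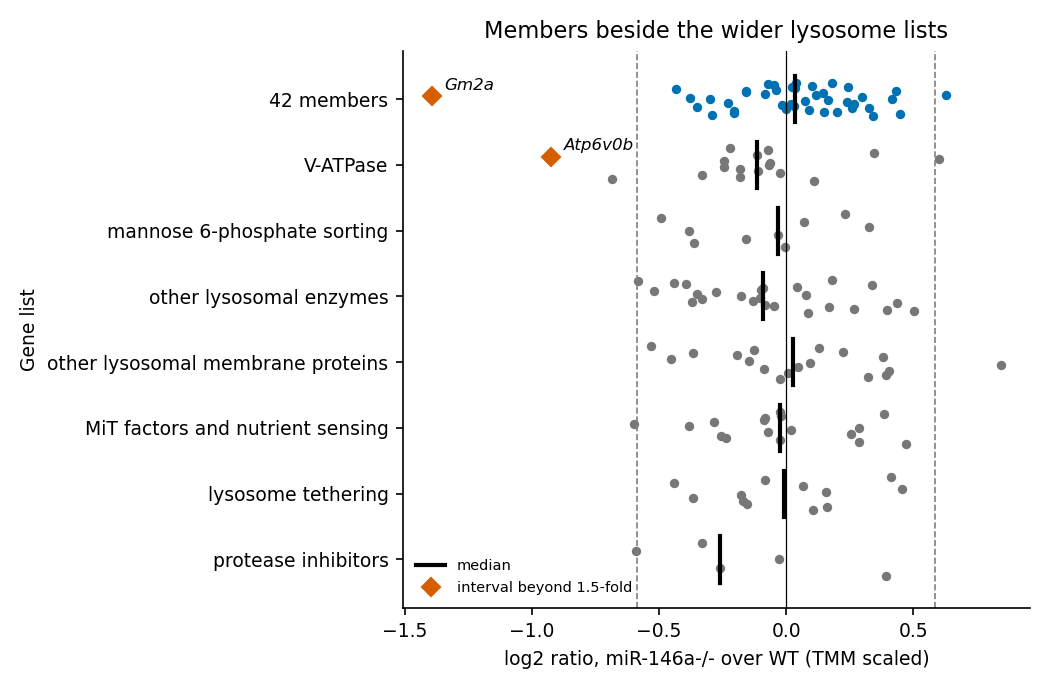
Log2 ratios, miR-146a-/- over WT (horizontal), of the 42 lysosome genes and of 7 wider lysosome lists (rows), 1 point per measured gene. Black bars are list medians, dashed lines mark 1.5-fold and diamonds are the genes called, Gm2a and Atp6v0b. Row medians run from -0.26 for protease inhibitors to 0.04 for the 42 genes, and Slc15a3 at 0.85 is the highest point.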

How the data were processed

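The authors deposited raw counts for each Ensembl gene as whole numbers. Reads with junctions were placed on the genome and duplicates flagged, per the file headers. STAR 2.5.3a, Salmon 0.9.0 and mm10 appear in the submitters' processing notes, with no role given. Which program counted reads, with which strand setting and annotation, the sources used here do not state. RNA was ribodepleted, per the labels' protocols.

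Symbols, positions and lengths came from GENCODE M21, which named 37693 of 39017 identifiers. The 1324 others held 0.286% of WT and 0.168% of miR-146a-/- counts. TMM sizes came from edgeR 4.0.16 (R 4.3.3). Its quasi-likelihood test needs replicates and was not run. For ratios 0.5 was added as a prior count, in proportion to library size. Intervals were computed with SciPy 1.17.1, cover counting error only, and were tested on simulated data.

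Described in full were called genes, the 2 highest and 2 lowest of each class and the 5 most abundant per kb. Of the wider lists, called, highest and lowest genes were named. Members and lists were chosen with earlier results of these data known. Tmem55b and Cstdc4 matched no symbol.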

Additional observations from a re-analysis of the deposited data

How the results depend on the processing

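Each genotype had 1 library, so leaving out a replicate was not possible, and the depth limits only counting error. No paired analysis was possible because each genotype had 1 library. Gm2a was called lower under all alternatives run, including a 2-fold threshold, with ratios from -1.56 to -1.31, and -2.21 by total counts. No lysosome gene was called higher under any of them.

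By total counts, 26 of the 42 were called lower, where 51.0% of all 13880 measured genes were. The medians became -0.78 for all 42, -0.83 for cathepsins, -0.75 for glycosidases, -0.64 for sulfatases, -0.86 for lipid handling, -0.73 for membrane proteins, -0.52 for other lumenal proteins and -0.74 for transcription factors. Ratios then changed sign with a call for Ctsa (-0.80), Man2b1 (-0.80), Ctsc (-0.79), Mcoln1 (-0.79), Arsa (-0.78), Lamp1 (-0.75), Ppt1 (-0.73), Cln3 (-0.72), Glb1 (-0.70) and Gaa (-0.67). By total counts of protein-coding genes, which put the median of all genes at -0.17, the medians were -0.13 for all 42, -0.17 for cathepsins, -0.094 for glycosidases, 0.019 for sulfatases, -0.20 for lipid handling, -0.074 for membrane proteins, 0.14 for other lumenal proteins and -0.084 for transcription factors. The mean of the other lumenal proteins was 0.14. For the median of the 42, DESeq2 1.42.0 size factors, upper-quartile scaling, other count filters, a prior count of 5, thinned WT counts and the length and GC adjustment gave -0.03 to 0.07, beside 0.04.

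Over the 13880 measured genes, 742 were called higher and 212 lower. These became 140 and 7077 by total counts, with a median of -0.83, and 496 and 574 by protein-coding totals, with a median of -0.17. Changing the filter also changed the genes counted: 491 and 130 of 10730 with at least 200 counts, and 740 and 322 of 20304 with no filter. Beyond 2-fold, which is stricter by construction, they were 294 and 42. For the scalings and filters the cause was not tested further.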

Other observations

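On the cytosolic face of the lysosome, the Ragulator complex anchors the Rag GTPases that report amino acids to mTORC1, a kinase complex that restrains TFEB and TFE3. Of 17 genes in that list, which includes Mitf and Tfec, 0 were called and the median was -0.02. The 5 Ragulator genes had these ratios: Lamtor1 -0.08, Lamtor2 -0.09, Lamtor3 -0.28, Lamtor4 -0.60 and Lamtor5 -0.38. The intervals of Lamtor1 and Lamtor2 spanned 0. Adjusted for length and GC content the ratios were 0.02, -0.0089, -0.21, -0.52 and -0.24 in the same order. Lamtor4 gave 1013 counts in WT against 240 in miR-146a-/-, with an interval of -0.81 to -0.39 that crossed 1.5-fold. The kinase gene Mtor was at 0.02 and its partner Rptor at 0.25. Fnip1, whose product acts with folliculin (Flcn, -0.02), was at 0.39.

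Genes that tether lysosomes to other vesicles and to microtubule motors had 0 of 12 called and a median of -0.01. The ratios ran from Borcs5 (-0.44), a subunit of a complex that recruits motors, to the adaptor Plekhm1 (0.45). Of genes chosen after their values were seen, the small GTPase Arl8a was at 0.41, while its paralog Arl8b was at -0.08. The vesicle fusion subunits Vps16 (-0.36), Vps11, Vps18 and Vps33a all had intervals below 0, and Vps39 (0.16) had one above it.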
